A study of Mus musculus with 6 samples.

Results

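The Sp100 family cluster is a set of 6 genes on mouse chromosome 1: the protein-coding genes Sp100, Sp110 and Sp140, and A530040E14Rik, Gm16094 and Gm10552, which are annotated as antisense RNA genes. The 6 genes were picked by name out of 24965 genes in the expression table because they were thought to be lower together in Hemgn-/- cells, so their difference between the genotypes chose them and is given here as a description with no test. The label holds for only 5 of them. Sp100, the gene the cluster is named after, had the same level in both genotypes.

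The cells were donor hematopoietic stem and progenitor cells (HSPCs) from 3 WT and 3 Hemgn-/- libraries, all taken 6 h after bone marrow transplantation (BMT). CD45.2+ bone marrow of WT mice, or of mice that lack Hemgn in every cell through an allele made with zinc finger nucleases on a C57BL/6 background, had been given to CD45.1+ mice irradiated with a split dose of 9 Gy, and CD45.2+ cells were then sorted. The study's methods give young adult mice of both sexes for its experiments. By the sample labels the sort took lineage-negative cells with Sca-1, to which the study's methods add c-Kit; the tail vein and the retro-orbital route, and Smart-Seq2 and TruSeq libraries, are each named by one source. The methods speak of biological replicates but tie no library to a mouse, so the spread between libraries may be partly technical.

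Proteins of the Sp100 family are nuclear proteins. They share an amino-terminal domain through which they assemble, and the longer forms also carry a SAND domain that binds DNA and a PHD finger and bromodomain that read chromatin. Sp100 is a founding component of PML nuclear bodies, which are punctate structures that hold back viral genomes. Sp110, also known in the mouse as Ipr1, and Sp140 are known for their part in resistance of macrophages to intracellular bacteria, and genes of the family are induced by interferon. In the mouse the family lies in a part of chromosome 1 that is rich in partial copies of its own genes.

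On GRCm38 with the GENCODE M21 annotation, Sp110 (ENSMUSG00000070034) occupies chr1:85576899-85598817 on the minus strand and Sp140 (ENSMUSG00000070031) occupies chr1:85600378-85645037 on the plus strand. Their annotated starts face away from each other over 1561 bases. Gm16094 (ENSMUSG00000090103, chr1:85599286-85599839, plus strand) lies inside that interval, 469 bases from the start of Sp110 and 539 bases before the start of Sp140. Gm10552 (ENSMUSG00000073628, chr1:85604085-85611896, minus strand) lies within the body of Sp140, on the other strand, and its exons overlap Sp140 exons by 4 bases. Sp100 (ENSMUSG00000026222, chr1:85649988-85709998, plus strand) begins 4951 bases after the end of Sp140. A530040E14Rik (ENSMUSG00000072109, chr1:85105946-85114035, plus strand) stands apart, about 463 kb from the nearest end of Sp110, where it overlaps A530032D15Rik and C130026I21Rik on the other strand.

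RefSeq promoter windows of GRCm38.p6, each 250 bases before to 50 bases after an annotated start, were found for 4 of the 6 genes. Those of Sp110 and Sp100 are shown because each holds a pair of GAAA sites, the letters on which interferon response elements are built. The capitals mark the only match in each window to GAAANNNGAAA, searched on both strands; here it lies on the reverse strand. The Sp110 window is chr1:85598761-85599060 on the minus strand and the Sp100 window is chr1:85649738-85650037 on the plus strand.
Sp110: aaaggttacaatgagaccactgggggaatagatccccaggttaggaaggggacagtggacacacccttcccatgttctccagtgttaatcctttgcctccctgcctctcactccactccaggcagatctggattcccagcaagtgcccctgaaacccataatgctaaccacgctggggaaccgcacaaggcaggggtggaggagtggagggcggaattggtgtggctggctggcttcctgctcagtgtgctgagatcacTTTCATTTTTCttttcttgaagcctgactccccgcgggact
Sp100: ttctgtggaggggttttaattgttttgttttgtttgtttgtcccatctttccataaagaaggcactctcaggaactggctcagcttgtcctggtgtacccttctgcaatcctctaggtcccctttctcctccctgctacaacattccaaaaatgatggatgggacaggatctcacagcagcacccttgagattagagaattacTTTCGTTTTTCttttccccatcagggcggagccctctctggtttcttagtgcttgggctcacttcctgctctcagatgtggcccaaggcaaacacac
The match begins at base 260 of the Sp110 window and at base 204 of the Sp100 window, where the leftmost base shown is base 1. The same match stands in a further, overlapping Sp100 window. None stands in a further Sp110 window upstream, chr1:85603842-85604141 on the minus strand. That window lies inside the Sp140 body, so RefSeq also gives Sp110 a start there. GAAANNNGAAA occurs in 2.75% of 32851 promoter windows. GAAANNGAAA, the usual spacing of the interferon-stimulated response element, occurs in 3.44% of them and was not found in a window of the cluster. The search was chosen after the windows had been read, and the match stands in a gene that was lower in Hemgn-/- cells and in one that was level.

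The Sp140 window (chr1:85600453-85600752, plus strand) is shown beside those of A530032D15Rik (chr1:85109804-85110103, minus strand) and C130026I21Rik (chr1:85270517-85270816, minus strand), which are protein-coding genes outside the cluster's 6, because the windows are near copies. RefSeq and GENCODE M21 place the Sp140 start differently. The Sp140 window thus lies wholly inside the GENCODE gene body, which begins at base 85600378. The capital marks the only mismatched base of the parts that align with Sp140.
Sp140: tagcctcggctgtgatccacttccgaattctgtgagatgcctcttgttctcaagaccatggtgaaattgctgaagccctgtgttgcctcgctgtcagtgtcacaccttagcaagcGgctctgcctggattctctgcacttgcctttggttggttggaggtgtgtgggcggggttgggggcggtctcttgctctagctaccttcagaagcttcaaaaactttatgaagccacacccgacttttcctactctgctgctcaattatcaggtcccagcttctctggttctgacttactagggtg
A530032D15Rik: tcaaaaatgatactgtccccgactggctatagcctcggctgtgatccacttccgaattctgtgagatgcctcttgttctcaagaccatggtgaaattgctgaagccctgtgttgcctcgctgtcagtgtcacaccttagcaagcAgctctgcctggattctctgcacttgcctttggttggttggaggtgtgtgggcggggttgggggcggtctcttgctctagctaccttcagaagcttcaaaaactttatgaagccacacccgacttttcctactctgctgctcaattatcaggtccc
C130026I21Rik: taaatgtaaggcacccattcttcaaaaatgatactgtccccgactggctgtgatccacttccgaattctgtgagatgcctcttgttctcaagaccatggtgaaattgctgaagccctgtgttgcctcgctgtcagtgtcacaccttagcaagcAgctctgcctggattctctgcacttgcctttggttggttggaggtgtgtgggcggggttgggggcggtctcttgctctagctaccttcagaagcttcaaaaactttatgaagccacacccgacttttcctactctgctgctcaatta
Over 271 aligned bases the A530032D15Rik window matched Sp140 at 270, and over 255 aligned bases the C130026I21Rik window matched it at 254. The mismatch with Sp140 was G116A in both, numbered along the Sp140 window with its leftmost base as 1. The aligned part of C130026I21Rik began only at base 8 of the Sp140 window. The A530032D15Rik and C130026I21Rik windows aligned to each other with 12 gap bases and no mismatch. The window of A530040E14Rik (chr1:85105843-85106142, plus strand) had no such copy among the windows shown and held none of the motifs searched.
A530040E14Rik: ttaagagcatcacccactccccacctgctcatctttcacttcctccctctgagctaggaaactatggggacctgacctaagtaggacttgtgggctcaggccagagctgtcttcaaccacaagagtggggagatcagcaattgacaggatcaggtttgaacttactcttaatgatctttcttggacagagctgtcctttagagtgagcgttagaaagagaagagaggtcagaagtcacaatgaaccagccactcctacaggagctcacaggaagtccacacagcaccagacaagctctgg

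Levels are FPKM, fragments scaled to exon length and to the library's total, and can be compared between genes. Differences are Hemgn-/- minus WT in mean log2(FPKM + 1), a scale that understates the change of low genes. Depth was 23667935 to 27716549 fragments in WT and 26175067 to 28897282 in Hemgn-/- libraries. Hemgn itself, the disrupted gene, had 5.64, 2.96 and 4.68 FPKM in WT and 0.755, 0.913 and 1.60 FPKM in Hemgn-/- libraries (log2 difference -1.37, limma adjusted p = 0.0114, and 0.0503 without WT replicate 3). Transcripts of HSPC genes were low against those of mature cells. Kit had a mean of 6.58 FPKM in WT and 5.68 FPKM in Hemgn-/- libraries and Ly6a, which encodes Sca-1, 9.38 and 14.7 FPKM, while Cd79a of B cells had 420 and 493 FPKM and S100a9 of neutrophils 9043 and 8049 FPKM.

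Sp110 had 34.8, 35.3 and 32.3 FPKM in the WT libraries and 11.1, 10.5 and 11.1 FPKM in the Hemgn-/- libraries. The lowest WT library was far above the highest Hemgn-/- library. The group means were 34.2 ± 1.59 and 10.9 ± 0.354 FPKM (SD, n = 3 each), a 3.12-fold lower level and a log2 difference of -1.56. Between 5581 and 6134 fragments per WT library and 1868 and 2182 per Hemgn-/- library stood behind these values.

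Sp140, the neighbour of Sp110, had 27.4, 26.1 and 24.7 FPKM in WT and 10.4, 10.9 and 10.6 FPKM in Hemgn-/- libraries. Its groups did not overlap either, and its 3 Hemgn-/- libraries lay closer together than its WT libraries. The means were 26.1 ± 1.38 and 10.6 ± 0.241 FPKM (SD, n = 3 each), 2.45-fold lower, with a log2 difference of -1.22. The ratio of Sp110 to Sp140 in FPKM was 1.27, 1.36 and 1.31 in WT and 1.07, 0.967 and 1.05 in Hemgn-/- libraries, so that Sp110 stood above Sp140 in every WT library and the pair was close to even in Hemgn-/- libraries.

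Sp100 had 121, 123 and 126 FPKM in WT and 129, 119 and 122 FPKM in Hemgn-/- libraries. The groups overlapped, with means of 123 ± 2.79 and 123 ± 5.04 FPKM (SD, n = 3 each). Its log2 difference of -0.0035 took the sign of the scaling used, at -0.10 after median-ratio scaling, -0.07 after quantile normalization and 0.08 when the libraries were set to the same FPKM total. At least 21642 fragments in each library stood behind Sp100, the best covered of the 6. The ratio of Sp100 to Sp110 was 3.48, 3.47 and 3.91 in WT and 11.5, 11.3 and 10.98 in Hemgn-/- libraries. The ratio of Sp100 to Sp140 was 4.41, 4.71 and 5.12 in WT and 12.4, 10.9 and 11.5 in Hemgn-/- libraries.

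**Figure D1:**
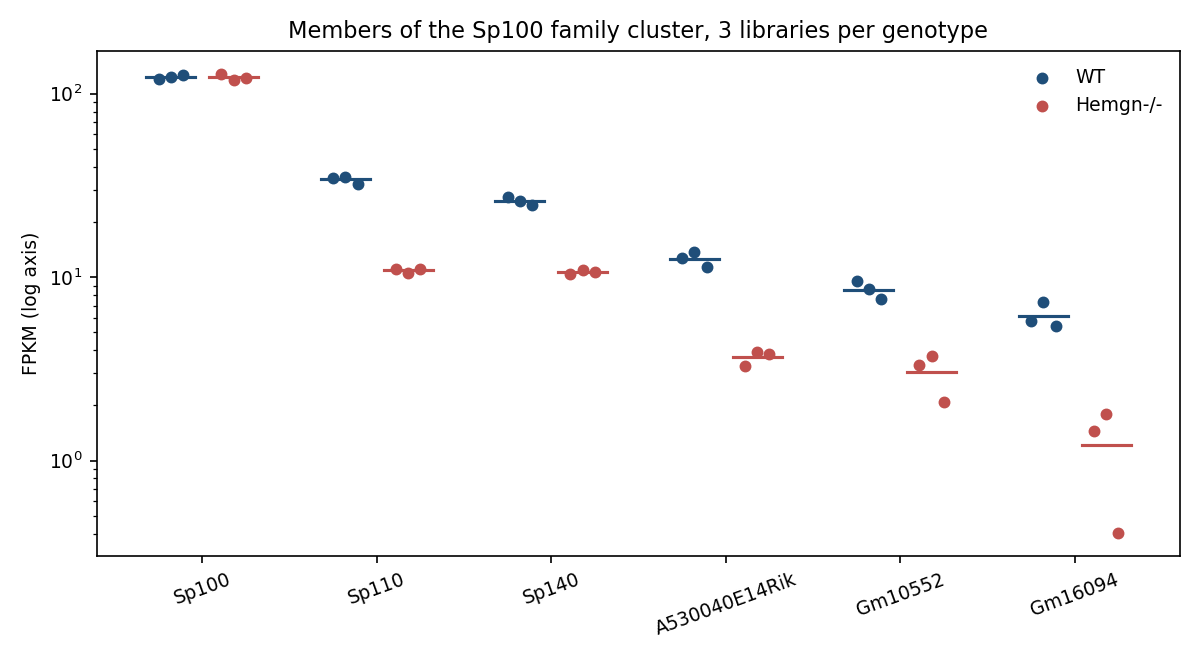
FPKM (log axis) of the 6 genes in each of 3 WT and 3 Hemgn-/- libraries (points), with the group mean as a bar. Sp100 lies at 119 to 129 FPKM in all libraries, while the other 5 genes are lower in each Hemgn-/- library than in any WT library.

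Of the antisense RNA genes, A530040E14Rik had the highest level, with 12.7, 13.7 and 11.4 FPKM in WT and 3.26, 3.93 and 3.81 FPKM in Hemgn-/- libraries. It was 3.43-fold lower in the mean, at 12.6 ± 1.16 against 3.67 ± 0.357 FPKM (SD, n = 3 each), with a log2 difference of -1.54. This gene was thus as far below WT as Sp110, although about 463 kb lie between them.

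Gm10552, the RNA gene inside Sp140, had 9.52, 8.58 and 7.58 FPKM in WT and 3.31, 3.73 and 2.097 FPKM in Hemgn-/- libraries. Its means were 8.56 ± 0.969 and 3.05 ± 0.847 FPKM (SD, n = 3 each), 2.81-fold lower, with a log2 difference of -1.26. Sp140 stood above Gm10552 by 2.88, 3.03 and 3.26 times in WT and by 3.14, 2.92 and 5.06 times in Hemgn-/- libraries. Apart from Hemgn-/- replicate 3 the pair thus kept nearly the same ratio in both genotypes.

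Gm16094, between the starts of Sp110 and Sp140, was the lowest of the 6, with 5.74, 7.32 and 5.41 FPKM in WT and 1.45, 1.79 and 0.405 FPKM in Hemgn-/- libraries. These values rested on 58, 80 and 64 fragments in WT and on 17, 20 and 5 fragments in Hemgn-/- libraries. The means of 6.16 ± 1.02 and 1.22 ± 0.722 FPKM (SD, n = 3 each) were 5.07-fold apart, with a log2 difference of -1.74, and Hemgn-/- replicate 3 was well below the other two. The groups did not overlap, yet the size of the difference is the least certain of the 6.

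All 6 genes passed the filter of more than 1 FPKM in at least 1 library. In 5 of 6 the groups did not overlap and Hemgn-/- was lower, an arrangement seen in 8.18% of 13739 genes tested. The same 5 had an adjusted p under 0.05 with limma and Benjamini-Hochberg adjustment and were lower, against 2.09% of all genes tested that were called lower and 6.46% called in either direction; since the genes were picked for this difference, nothing is read from either count. The median log2 difference was -1.40 over the 6 genes and 0.09 over all genes tested. In order of level, Sp100 was followed by Sp110, Sp140, A530040E14Rik, Gm10552 and Gm16094 in both genotypes. No neighbours in that order overlapped in WT, whereas Sp110 overlapped Sp140 and A530040E14Rik overlapped Gm10552 in Hemgn-/- libraries. In bulk RNA, fewer cells that express a gene and less RNA per cell cannot be told apart.

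The 5 lower genes together took 369, 370 and 338 FPM (fragments scaled to the library's total alone) in WT and 122, 121 and 122 in Hemgn-/- libraries. With Sp100 the sum was 1292 ± 7.28 in WT and 1052 ± 38.2 FPM in Hemgn-/- libraries (SD, n = 3 each), since Sp100 alone makes up most of it.

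How far these genes can be told from their copies was measured as the share of each gene's 150-base stretches, the length of a read, that also occur exactly in transcripts of another gene. Gm16094 had no such stretch, and in Sp100 the share was 0.507%. In Sp110 it was 11.1%, of which the largest parts were shared with the pseudogene Gm16026 (5.43%) and with G530012D18Rik on the other strand (3.37%). In Sp140 it was 21.3%, with 11.8% in Gm17017, an antisense RNA whose exons cover 877 of the 3328 exon bases of Sp140, and 4.78% in the pseudogene Gm2427. A530040E14Rik (9.73%) and Gm10552 (28.2%) shared most of theirs with each other, in a run of up to 372 bases, so the pair is not fully independent. Whether the libraries and the counting kept the strand is not given in the sources used here. Without strand, reads over exons that overlap on opposite strands cannot be assigned to one of the pair. Such pairs are Sp110 with G530012D18Rik, whose exons cover 392 of the 6781 exon bases of Sp110, and Sp140 with Gm17017. A530040E14Rik with C130026I21Rik is another, whose exons cover 343 of the 2323 exon bases of A530040E14Rik. Sp140 and Gm10552 overlap by only 4 exon bases.

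As a group, the measured genes that share such stretches took no more fragments in Hemgn-/- than in WT libraries. Of 17 such genes outside the cluster, 15 were measured. G530012D18Rik, which shares 3.37% of the Sp110 stretches, and Gm5831 were not. The 13 in the span of the cluster or within 1 Mb of it took 58.3 ± 0.580 FPM in WT and 58.9 ± 2.42 in Hemgn-/- libraries (SD, n = 3 each). All 15 together took 64.7 ± 1.71 FPM in WT and 62.7 ± 3.02 in Hemgn-/- libraries (SD, n = 3 each), with overlapping groups. Added to the 5 lower members, the sum was 424 ± 18.8 in WT and 185 ± 3.36 FPM in Hemgn-/- libraries. Only 8 of the 15 passed the filter, and 1 rose while none fell at an adjusted p under 0.05 with limma, with a median log2 difference of 0.02. At an unadjusted p under 0.05 there were 3 higher and 2 lower, and limma's voom called 1. For counts at an unadjusted p, in this list and those below, no share over all genes is given here, so nothing is read from them.

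C130026I21Rik was the one that rose: WT libraries had 0.949, 0.664 and 0.782 FPKM and Hemgn-/- libraries 2.02, 2.04 and 1.99 FPKM (log2 difference 0.75, SE 0.17, limma adjusted p = 0.0343). Its call was lost in 10 of 15 alternatives, while the difference stayed between 0.68 and 1.35. A530032D15Rik, with 20.98, 20.9 and 19.9 FPKM in WT and 19.9, 18.2 and 18.6 FPKM in Hemgn-/- libraries, did not pass the test (log2 difference -0.12, limma adjusted p = 0.468). The 3 genes with near-identical promoter windows thus had different values: Sp140 was 2.45-fold lower, A530032D15Rik differed little, and C130026I21Rik was higher at a low level. A530040E14Rik, which overlaps both of the latter on the opposite strand, was at 0.605, 0.655 and 0.571 of the A530032D15Rik level in WT and at 0.164, 0.216 and 0.205 of it in Hemgn-/- libraries.

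**Figure D2:**
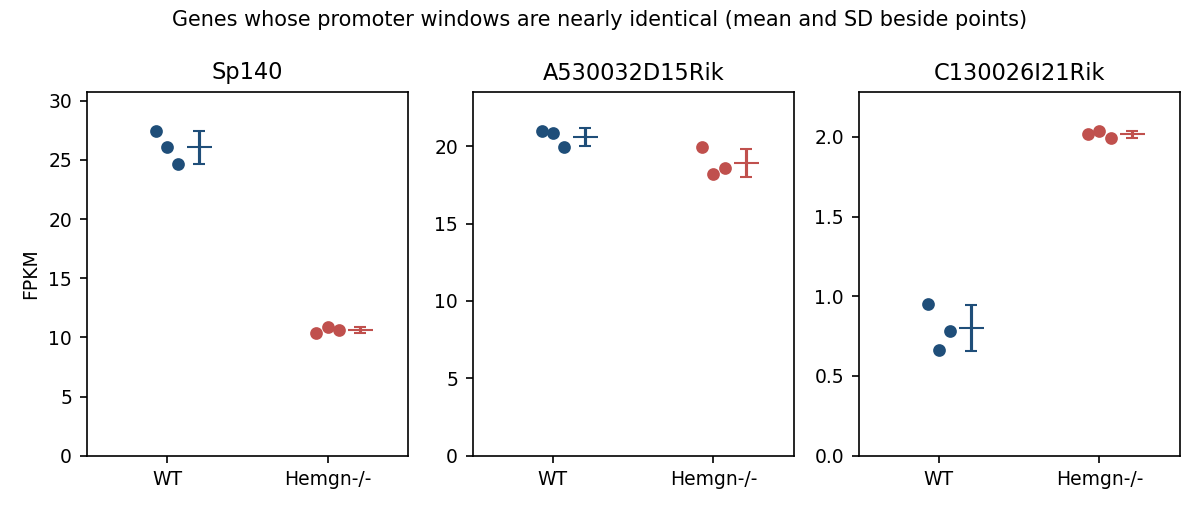
FPKM in 3 WT and 3 Hemgn-/- libraries (points), with mean and SD beside them, of Sp140, A530032D15Rik and C130026I21Rik, each on its own axis from 0. Sp140 goes from 26.1 to 10.6 FPKM in the mean, A530032D15Rik lies between 18.2 and 20.98 FPKM in all libraries, and C130026I21Rik lies at 1.99 to 2.04 FPKM in Hemgn-/- libraries, above each WT library.

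Gm17017, the antisense partner of Sp140, had 1.56, 1.71 and 1.71 FPKM in WT and 0.742, 1.03 and 1.21 FPKM in Hemgn-/- libraries, without passing the test (log2 difference -0.42, limma adjusted p = 0.213). Gm15753, a pseudogene on chromosome 5 that holds 2.05% of the Sp110 stretches, had a mean of 5.08 FPKM in WT and 2.85 FPKM in Hemgn-/- libraries (limma adjusted p = 0.0692). In both, the groups did not overlap. Gm2427, which shares a run of 274 bases with Sp140, had 16, 14 and 19 fragments in WT and 0, 3 and 1 in Hemgn-/- libraries and stayed under the filter. With every gene above 0 FPKM tested, its log2 difference was -0.71 (limma adjusted p = 0.0265). The remaining sequence-sharing genes that were tested did not pass: Gm16026 at -0.25, Gm18342 at 0.15, Gm7582 at 0.78 and Gm7592 at 0.58 in log2 difference (limma adjusted p from 0.0839 to 0.582).

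In the span of the cluster or within 1 Mb of it lie 56 other genes of the expression table. Among them are 13 of the sequence-sharing genes just described. Of the 56, 27 were tested, 3 rose and none fell at an adjusted p under 0.05 with limma, with a median log2 difference of 0.18. The shares over all genes tested were 4.37% higher and 2.09% lower (600 and 287 genes), a balance that moved with the scaling, to 349 higher and 372 lower after median-ratio scaling, 369 and 350 after quantile normalization and 1062 and 238 with the same FPKM total. At an unadjusted p under 0.05, again without a share over all genes, 10 were higher and 2 lower, and voom called 3, none of them lower. With every gene above 0 FPKM tested, 2 were called higher and 1, Gm2427, lower.

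Besides C130026I21Rik, the genes that rose were the processed pseudogenes Gm15433 and Gm2666. Gm15433 had 0.379, 0.702 and 0.648 FPKM in WT libraries against 3.19, 4.72 and 3.85 FPKM in Hemgn-/- libraries (log2 difference 1.64, limma adjusted p = 0.0019), and its call held in all 15 alternatives. Gm2666 had 2 fragments in each WT library and 21, 27 and 36 in Hemgn-/- libraries (log2 difference 0.97, limma adjusted p = 0.0415), and its call was lost in 9 of 14 alternatives. On the Sp100 side of the cluster, A630001G21Rik, the next gene tested beyond Sp100, had means of 33.9 and 38.6 FPKM (log2 difference 0.18, limma adjusted p = 0.210).

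**Figure D3:**
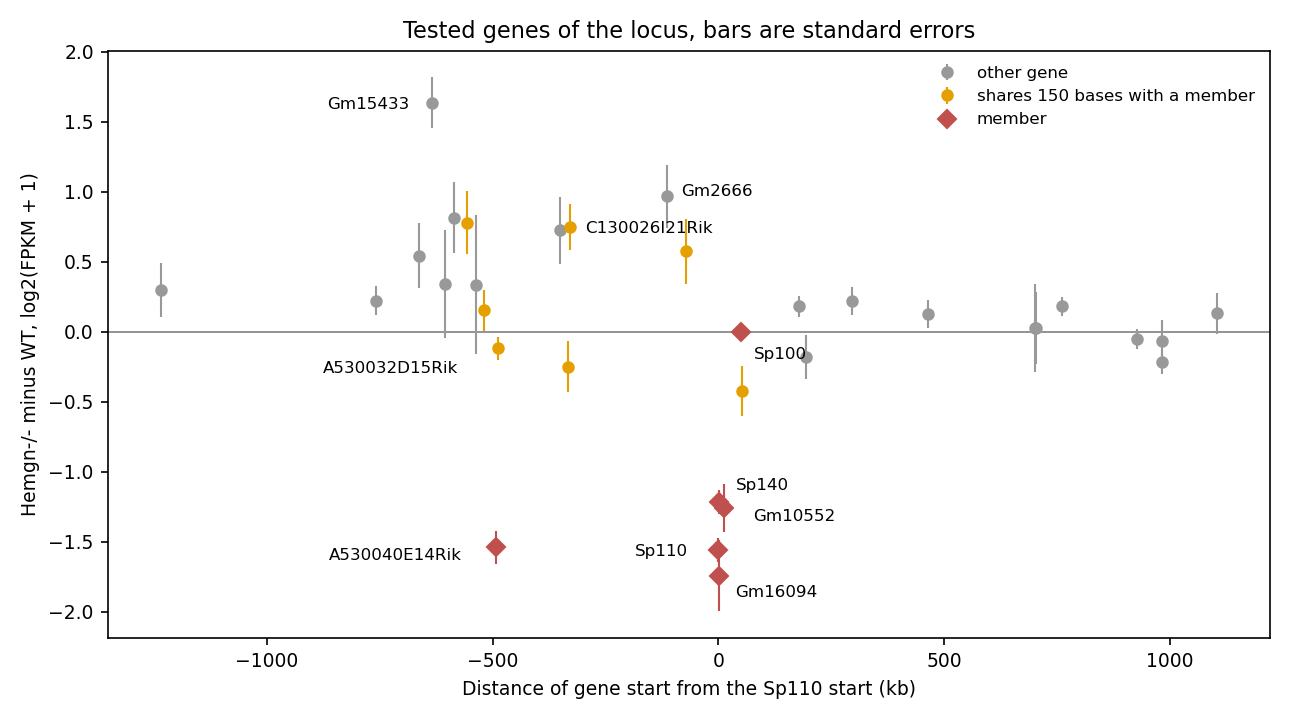
Log2 difference, Hemgn-/- minus WT in mean log2(FPKM + 1), of the tested genes of the locus against the distance of their start from the Sp110 start in kb, with bars for the standard error. Diamonds are the 6 members, of which 5 lie between -1.22 and -1.74 and Sp100 lies at 0, and the other genes lie at or above -0.42.

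Gene lists related to the family by function were set beside the members. Of 39 tested genes of PML nuclear bodies, Pml rose and H3f3b fell with limma, 2 genes called where 6.46% of all genes tested were, and the list's median log2 difference was -0.01. Pml, the scaffold of the bodies in which Sp100 resides, had 29.1 ± 4.49 FPKM in WT against 40.7 ± 2.68 FPKM in Hemgn-/- libraries (SD, n = 3 each; log2 difference 0.48, limma adjusted p = 0.0485), a call lost in 10 of 15 alternatives. H3f3b, which encodes the replacement histone H3.3, went from 638 to 507 FPKM (log2 difference -0.33, limma adjusted p = 0.0124), a call lost in 3 of 15 alternatives.

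Of 31 tested relatives with SAND, PHD or bromodomain modules, none passed the test with limma, with 3 at an unadjusted p under 0.05 and 1, Brd2, by voom. The list's median log2 difference was 0.01. Deaf1, a SAND domain transcription factor, had 3.55 ± 0.441 FPKM in WT and 3.71 ± 0.213 FPKM in Hemgn-/- libraries (SD, n = 3 each; limma adjusted p = 0.839). The lowest log2 difference of this list was -0.38, of Atad2. Sp110 and Sp140 lay below it and Sp100 lay within the range of the list. Since the members were picked for this difference, nothing is read from that.

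Of 50 interferon response genes, a class to which the family belongs though its members were left out of the list, 29 rose and none fell with limma, with 42 higher and 1 lower at an unadjusted p under 0.05. Over the list 49 of 50 log2 differences were above 0, with a median of 0.53. By voom 31 were called, 1 of them lower. Among those that rose, the chemokine genes Cxcl10 (1.32) and Cxcl9 (1.16) had the largest log2 differences, and Oas2 (0.36, a call lost in 11 of 15 alternatives), an antiviral oligoadenylate synthetase, and Ddx58 (0.47), which encodes the RNA sensor RIG-I, the smallest. Sp110 and Sp140, which were picked as lower, lay on the opposite side of 0 from these genes, and Sp100 lay apart from both. The gene of the list below 0 was Trim21 (log2 difference -1.19, limma adjusted p = 0.0680).

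**Figure D4:**
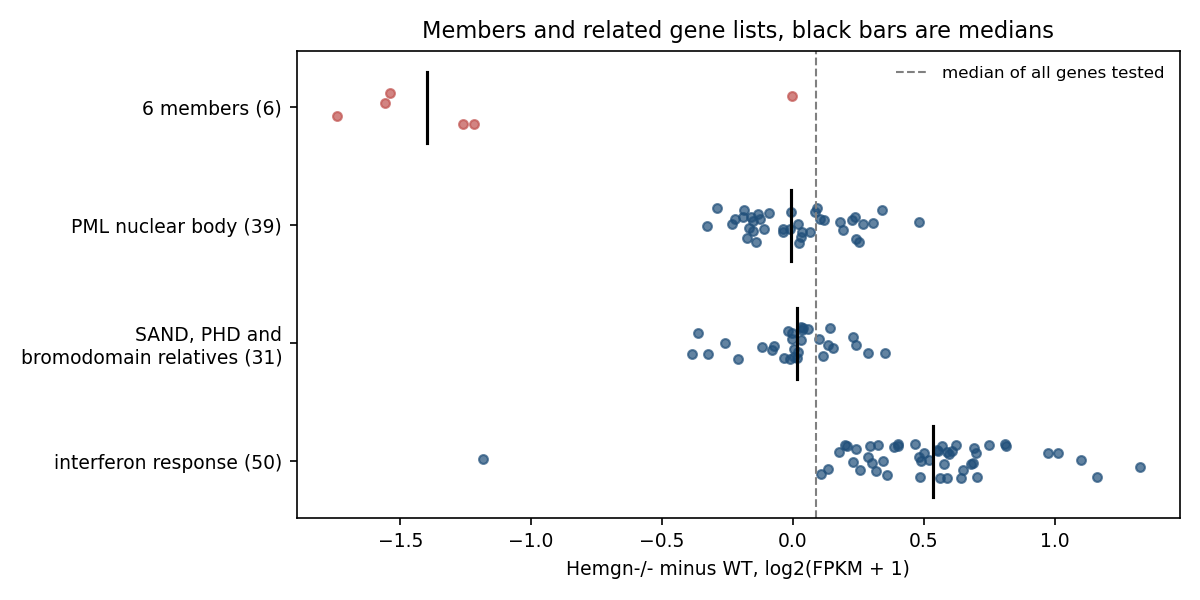
Log2 difference, Hemgn-/- minus WT in mean log2(FPKM + 1), of the 6 members and of the tested genes of 3 related lists (points), with list medians as black bars and the median of all genes tested, 0.09, as a dashed line. The member median is -1.40 and the interferon response median is 0.53, while the other lists have medians near 0.

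By a rule that seeks the nearest pattern over the 6 libraries, the genes most like the mean of standardised Sp100, Sp110 and Sp140 were Asns, Ppp1r16b, Inpp4a, Gm12314 and Dnajb9, with Pearson r from 0.991 to 0.996. This mean gives Sp100, which did not differ between the genotypes, as much weight as the other members. With Sp110 alone as the pattern, a choice made after the values were seen, the nearest were Ppfibp2, Tpm3 and Aurka, with Pearson r from 0.998 to 1.00 over 6 libraries. Each of these 3 was lower in Hemgn-/- libraries, as any gene split by genotype in the same way as Sp110 must be.

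Marker lists moved with the genotype beside the members, and their counts stand against 4.37% called higher and 2.09% called lower over all genes tested. Among neutrophil markers 6 of 12 fell with limma, and their summed level was 73481 to 79169 FPKM in WT and 47355 to 52925 FPKM in Hemgn-/- libraries. Among erythroid markers 3 of 9 fell, namely Hba-a1 (log2 difference -4.01), Alas2 (-3.32) and Hbb-bt (-2.09), although Klf1 did not pass the test. The erythroid sum, mostly Hba-a1 in WT, lay at 349 to 408 FPKM in WT and at 58.1 to 77.3 FPKM in Hemgn-/- libraries. Among macrophage markers, a cell type in which Sp110 and Sp140 are known to be expressed, 2 of 13 rose and 3 fell. Adgre1 (log2 difference 0.51) and Csf1r (0.50) were the 2 that rose, and Vcam1 (-0.66), C1qb (-0.44) and Lyz2 (-0.37) were the 3 that fell. The sum, mostly Lyz2, was 22905 to 25630 FPKM in WT and 16499 to 20572 FPKM in Hemgn-/- libraries. Among B cell markers 6 of 12 rose, among T and NK cell markers 3 of 12, among plasmacytoid dendritic cell markers 5 of 10 and among HSPC markers 2 of 12. Their sums were 1329 to 1397 and 1650 to 1826 FPKM for B cells, 214 to 239 and 272 to 294 FPKM for T and NK cells, 345 to 347 and 448 to 523 FPKM for plasmacytoid dendritic cells and 45.8 to 50.6 and 56.1 to 65.2 FPKM for HSPCs, in WT and Hemgn-/- libraries respectively. Of the markers placed first in their lists and named here, Cd3d and Siglech rose, while Cd79a, Cd3e, Bst2, Kit, Ly6a, S100a8 and S100a9 did not pass. No list was at 0 in either genotype, though, for example, Mecom of HSPCs (0.114 and 0.300 FPKM), Tal1 (0.434 and 0.241 FPKM), Mertk of macrophages and Slc4a1 and Rhd of erythroid cells stayed under 1 FPKM in the mean. The part of these cell types in the values of the 6 genes was not tested.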

How the data were processed

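RNA-seq was analysed from 3 WT and 3 Hemgn-/- libraries, grouped by the genotype in the sample labels. The authors deposited FPKM per gene, 1 column per library; the submitters' processing notes name HISAT2 2.1.0, Bowtie2 2.2.3, TopHat2, HTSeq 0.6.0 and GRCm38. How reads that fit several genes were counted is not given in the sources used here, and this bears on genes with copies. Symbols, lengths and transcripts came from GENCODE M21 (24921 of 24965 genes matched). Low FPKM values fell in whole steps (95.7% of 13486 genes with few fragments, tolerance 0.05), which gave the fragments and depths; amplified fragments are not independent molecules. On the log2(FPKM + 1) scale, limma 3.58.1 (R 4.3.3) compared the genotypes over 13739 genes that exceeded 1 FPKM in some library (eBayes with a trend, two-sided, Benjamini-Hochberg over all tested, adjusted p under 0.05). The method was tested on simulated data. Genes named are the members, Hemgn, sequence-sharing and called locus genes, the ends of each list among called genes with Pml and Deaf1, the first markers of each list and the genes most alike; others were chosen after their values were seen, and some genes and a motif that the rule or search covered are not reported here. Members and lists were chosen with earlier results of these data known. Replicates differed by more than sampling noise (chi-square per gene 17.5 to 35.2). Python 3.11.15 and Biopython 1.88 did the rest.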

Additional observations from a re-analysis of the deposited data

How the results depend on the processing

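The members' median log2 difference of -1.40 was -1.56 with a pseudocount of 0.1, -1.48 after median-ratio scaling, -1.48 after quantile normalization and -1.58 by voom on the recovered fragments, and -1.47 to -1.33 without 1 library. The median of all genes, 0.09, was 0.11 with a pseudocount of 0.1 and by voom, 0.01 after median-ratio scaling or quantile normalization and 0.16 with the same FPKM total. Of all genes 887 were called, against 466 with every gene above 0 FPKM, 390 by eBayes without a trend and 373 to 688 without 1 library (leaving out WT replicate 1 gave 470, WT replicate 3 gave 494, Hemgn-/- replicate 2 gave 525 and Hemgn-/- replicate 3 gave 373). Hemgn, at -1.37, missed the threshold with every gene above 0 FPKM (-1.37, adjusted p = 0.0613) and ranged from -1.58 to -1.20 without 1 library. The 3 called locus genes became 1 after median-ratio scaling, quantile normalization or with the replicate block, and 1 without any 1 library. The 1 called sequence-sharing gene became 0 after median-ratio scaling, quantile normalization, the replicate block or without any 1 library, and 2 without a trend. With every gene above 0 FPKM the called sequence-sharing gene was another, Gm2427, and lower, C130026I21Rik being lost (adjusted p = 0.0815), and the locus count was 2 higher and 1 lower. The 2 called PML body genes became 0 with every gene above 0 FPKM or without a trend, 1 after median-ratio scaling, quantile normalization or with the replicate block, and 0 to 2 without 1 library. The SAND, PHD and bromodomain relatives gave 1 with the same FPKM total or by voom, and 0 to 1 without 1 library. The 29 interferon response genes became 17 without a trend and 17 to 29 without 1 library, with the 17 in the absence of Hemgn-/- replicate 3. The 28 called markers of other cells became 17 without a trend and 18 to 23 without 1 library, with the 18 in the absence of WT replicate 1 or of Hemgn-/- replicate 3. The cause of these moves was not tested, and no called value changed sign. Same-numbered libraries did not deviate together (r of -0.0428, -0.00936 and 0.0111), so numbers were not taken as pairs; with the replicate block 636 genes were called. Alternatives without a library leave 2 in that group. Depth limits Gm16094 and the low copies most.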
